A study of Mus musculus with 12 samples.

Results

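The m6A erasers Fto and Alkbh5 were followed here as m6A-marked transcripts in J1 mouse embryonic stem cells. They were chosen by name, as every row assigned to Fto (ENSMUSG00000055932) or Alkbh5 (ENSMUSG00000042650) in 4 deposited peak tables. These were 8 rows of 32586, for 2 genes of 6074 with a listed peak, and they held 7 of the 33072 peaks listed over 6 immunoprecipitation (IP) libraries. There were 3 groups with 2 IP libraries each: cells carrying a lentiviral shRNA against Mettl14, an shRNA against Mettl3, or a scramble shRNA. All groups were J1 cells grown with LIF on irradiated mouse embryonic fibroblast feeders, infected with lentivirus and selected as stable lines with puromycin. The sources used here name no step that removed the feeder cells and do not say whether a line was 1 clone. Fragmented poly(A) RNA was pulled down with an antibody against N6-methyladenosine (m6A). Each table set 1 knockdown IP library against 1 scramble IP library, and the 4 tables fall into 2 sets, set 1 and set 2, within which the Mettl14 and Mettl3 tables share their scramble library. The names of the sets only separate the tables. The 6 libraries labelled with no antibody were not analysed here.

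m6A is the most common internal modification of mRNA. It is written by a complex in which Mettl3 is the catalytic methyltransferase and Mettl14 its RNA-binding partner, mostly at adenosines in a GGAC-like context, and it is read by YTH domain proteins. Fto and Alkbh5 are iron- and 2-oxoglutarate-dependent dioxygenases of the AlkB family that take the methyl group off again. Fto also acts on the methylated adenosine next to the mRNA cap and is known for the obesity-associated variants in the introns of its gene. Alkbh5 is a nuclear enzyme that mice need for sperm development. A peak on these mRNAs is a measure of methylation on the eraser's own transcript. It measures neither the level nor the activity of the enzyme.

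Each eraser mRNA had 1 listed peak, and the 2 peaks lay in different parts of their transcripts. The Fto peak filled exon 3, an internal coding exon. The Alkbh5 peak filled exon 1 and crossed the start codon. A single peak was usual: 73.1% of the 5033 genes with a scramble peak in set 1 had 1, and 78.8% of 3734 in set 2. The 300 bases below are shown because they hold the scramble summits of each peak, the summit being the position of its highest pile-up. Both are coding sequence of the plus strand of GRCm38 (mm10), from the GENCODE M21 principal transcripts of Fto (chr8:91409223-91409522, from the first base of exon 3) and Alkbh5 (chr11:60538423-60538722, from the start codon). Capitals mark the motif GGACT and its forms that end in C or A, which are among the sequences that the writer complex is known to prefer.
Fto: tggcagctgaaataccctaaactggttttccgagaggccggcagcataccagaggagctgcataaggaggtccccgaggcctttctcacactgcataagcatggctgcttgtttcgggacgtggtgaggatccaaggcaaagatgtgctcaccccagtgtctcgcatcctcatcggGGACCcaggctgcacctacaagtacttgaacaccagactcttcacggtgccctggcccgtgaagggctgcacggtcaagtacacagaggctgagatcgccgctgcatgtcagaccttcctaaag
Alkbh5: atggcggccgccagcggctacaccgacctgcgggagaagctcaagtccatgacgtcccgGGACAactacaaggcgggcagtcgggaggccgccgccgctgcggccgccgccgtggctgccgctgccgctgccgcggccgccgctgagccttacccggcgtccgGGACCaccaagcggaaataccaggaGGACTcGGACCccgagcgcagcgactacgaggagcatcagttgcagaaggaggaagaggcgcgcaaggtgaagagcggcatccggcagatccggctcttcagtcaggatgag
The Fto stretch holds a single capital run and has a GC content of 56.7%, and the scramble summit of set 1 falls on its base 138. The Alkbh5 stretch holds 4 capital runs and has a GC content of 69.0%, with the set 1 scramble summit on its base 23.

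The Fto peak kept its place in every library that listed it. In the authors' deposited tables it ran from 91409227 to 91409861 of chromosome 8 in the Mettl14 knockdown library of set 2, and from 91409233 to 91409863 in the Mettl3 knockdown library of set 1. The scramble peaks ran from 91409220 to 91409860 in set 1 and from 91409224 to 91409863 in set 2, in the authors' deposited tables. Exon 3 spans 91409223 to 91409841, 619 nt that are all coding, and the peaks covered 98.4% to 100% of it and ended 19 to 22 nt past its last base. The deposited summit was at 91409360 in 3 libraries and 1 base further, at 91409361, in the set 2 scramble library. On the spliced mRNA this is 260 or 261 nt after the first base of the start codon and 1246 or 1245 nt before the stop codon.

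The Alkbh5 peak was wider and its edges moved more between libraries. It ran from 60537810 to 60539280 on chromosome 11 in the Mettl3 knockdown library of set 2, from 60537849 to 60539248 in the set 1 scramble library and from 60537776 to 60539248 in the set 2 scramble library, in the authors' deposited tables. Exon 1 of the principal Alkbh5 transcript spans 60537978 to 60539195, of which 445 nt are 5' UTR and 773 nt coding, and all 3 peaks covered the whole of it. They began 129 to 202 nt before the annotated first base of the exon and ended 53 to 85 nt past its end. The deposited summit lay 1 nt before the start codon in the knockdown library, and 22 nt and 31 nt after its first base in the scramble libraries of set 1 and set 2.

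**Figure D1:**
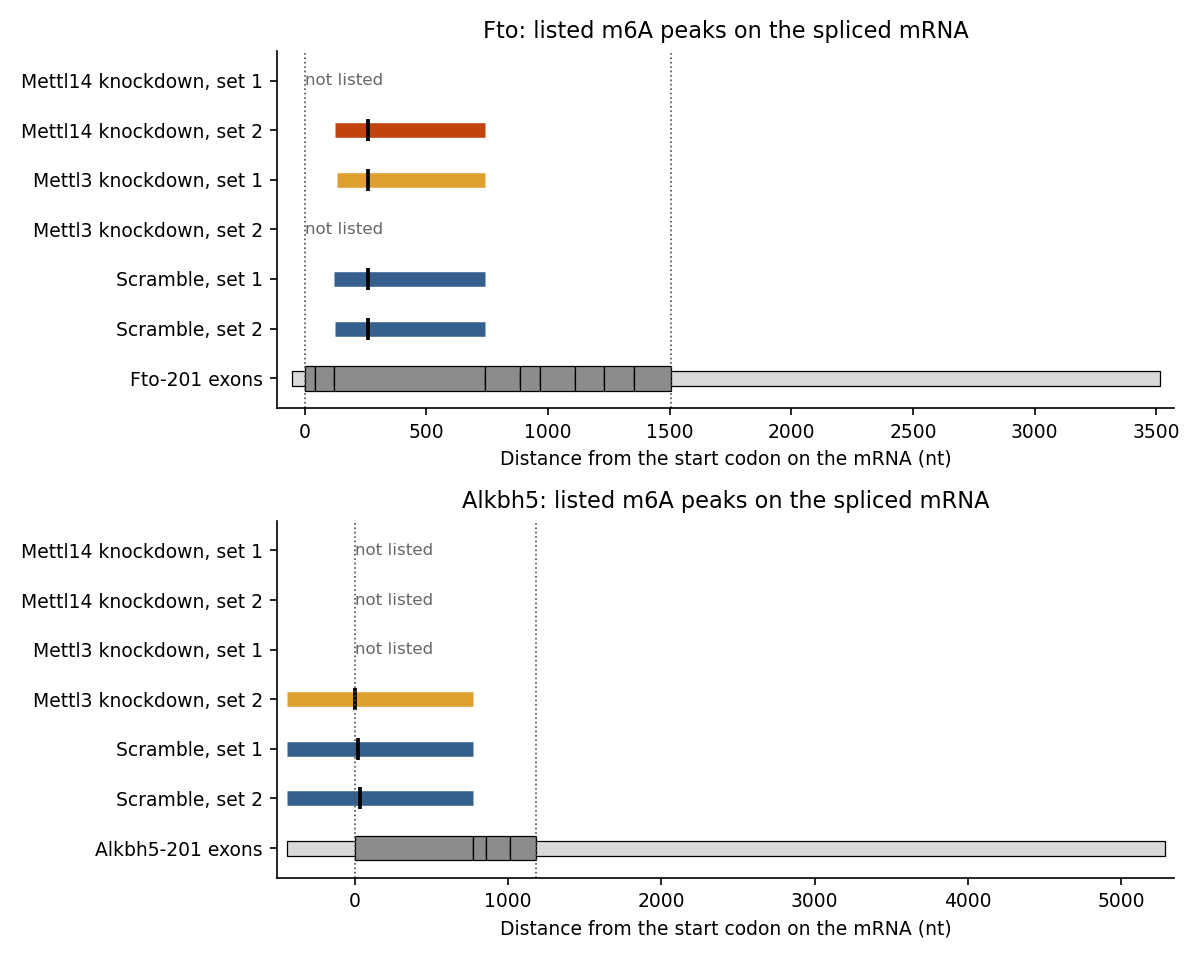
Listed m6A peaks of Fto (top) and Alkbh5 (bottom) on the spliced mRNA, with the distance from the start codon in nt on the horizontal axis. Coloured bars are the parts of the peaks that lie in exons, black ticks are summits, boxes are exons with the coding part taller, and dotted lines mark the start and stop codons. The Fto bars fill exon 3 in 4 of 6 libraries and the Alkbh5 bars fill exon 1 in 3 of 6.

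Neither position is the most frequent one for m6A in these cells. Of the scramble peaks that could be placed on a principal transcript (5974 in set 1 and 4209 in set 2), 43.0% and 44.1% covered a stop codon, which neither eraser peak did. A start codon, as under the Alkbh5 peak, was covered by 10.7% of the peaks in set 1 and 14.9% in set 2. A centre in an internal coding exon with neither codon in the peak, as for Fto, was found for 21.6% and 21.7%. No other peak was listed within the span of either gene, on either strand, in any of the 4 tables. The long 3' UTRs of both mRNAs therefore carried none.

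Most GGACT copies lay outside the peaks, as did most of each mRNA. The exons with the peaks span 619 of 3564 nt in Fto and 1218 of 5730 nt in Alkbh5. The motif, searched on the RNA strand, occurred 0 times in the exonic part of the Fto peak, although the whole mRNA holds 3 copies, 1 in coding sequence and 2 in the 3' UTR. The Fto peak did hold 1 copy of the form that ends in A and 2 of the form that ends in C, GGACC, of which the copy in capitals above is centred 41 nt past the summit, at chr8:91409399-91409403. AAACT, a further form, was there with 2 copies, and GAACT with 1. Of 99459 windows of 619 nt taken along principal transcripts, 47.9% held GGACT and 85.7% held at least 1 form that ends in T, A or C. Alkbh5 exon 1 held 2 copies of GGACT, 1 of the form that ends in A and 6 of the form that ends in C, and the copy that ends in A was centred 39 nt past the set 1 scramble summit. Of 45062 windows of 1218 nt, 71.8% held GGACT and 96.8% at least 1 of these forms. The other 8 of the 10 GGACT copies in the Alkbh5 mRNA were in the 3' UTR, where no peak was listed. These matches describe letters and not methylated sites, and overlapping windows of a transcript share sequence.

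Both eraser peaks were weakly enriched. The deposited fold enrichment is the IP signal over that library's own control in the peak. For Fto it was 6.92 in the Mettl14 knockdown library of set 2, 6.07 in the Mettl3 knockdown library of set 1, and 7.19 and 6.12 in the scramble libraries of set 1 and set 2, in the authors' deposited tables. These values overlap between knockdown and scramble libraries. For Alkbh5 it was 6.97 in the Mettl3 knockdown library of set 2, against 6.41 and 6.25 in the scramble libraries of set 1 and set 2, in the authors' deposited tables. The knockdown library was the highest of the 3. Knockdown libraries that did not list a peak have no value, so a lower enrichment in them could not be seen. The median over all peaks of a library ran from 12.9 to 18.8. Of each library's peaks, 4.66% to 14.3% had a lower enrichment than Fto and 6.62% to 15.9% a lower one than Alkbh5. The Alkbh5 peak was wide as well, with 90.7% to 93.0% of peaks narrower, against 48.7% to 62.0% for Fto.

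Tag counts, the sequenced fragments in a peak, were lower in the knockdown libraries that listed a peak. Fto held 98 tags (95% Poisson interval 79.6 to 119) in the Mettl14 knockdown library of set 2 and 138 (116 to 163) in the Mettl3 knockdown library of set 1, in the authors' deposited tables. Its scramble peaks held 193 (167 to 222) in set 1 and 188 (162 to 217) in set 2, in the authors' deposited tables. Both knockdown values lay below both scramble values. The median tag ratio of knockdown over scramble was 0.704 over 475 shared peaks in the Mettl14 table of set 2. It was 0.577 over 694 and 0.573 over 693 in the Mettl3 tables of set 1 and set 2. The ratio could be had only for shared peaks that the other knockdown of the set had lost. These medians therefore do not describe shared peaks in general. Alkbh5 held 219 tags (191 to 250) in the Mettl3 knockdown library of set 2, against 268 (237 to 302) and 356 (320 to 395) in the scramble libraries of set 1 and set 2, in the authors' deposited tables. Its interval overlaps that of the set 1 scramble library, and its enrichment above ran the other way. Per 100 nt of peak, the tag density of Fto was 15.4 and 21.9 in these knockdown libraries and 30.1 and 29.4 in the scramble libraries. The tag density of Alkbh5 was 14.9 in the knockdown library, against 19.1 and 24.2 in the scramble libraries, below Fto in each scramble library. Poisson intervals cover counting error only. Tags were not scaled for depth, which the tables do not give, and a part of depth or of transcript level in these differences was not tested.

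**Figure D2:**
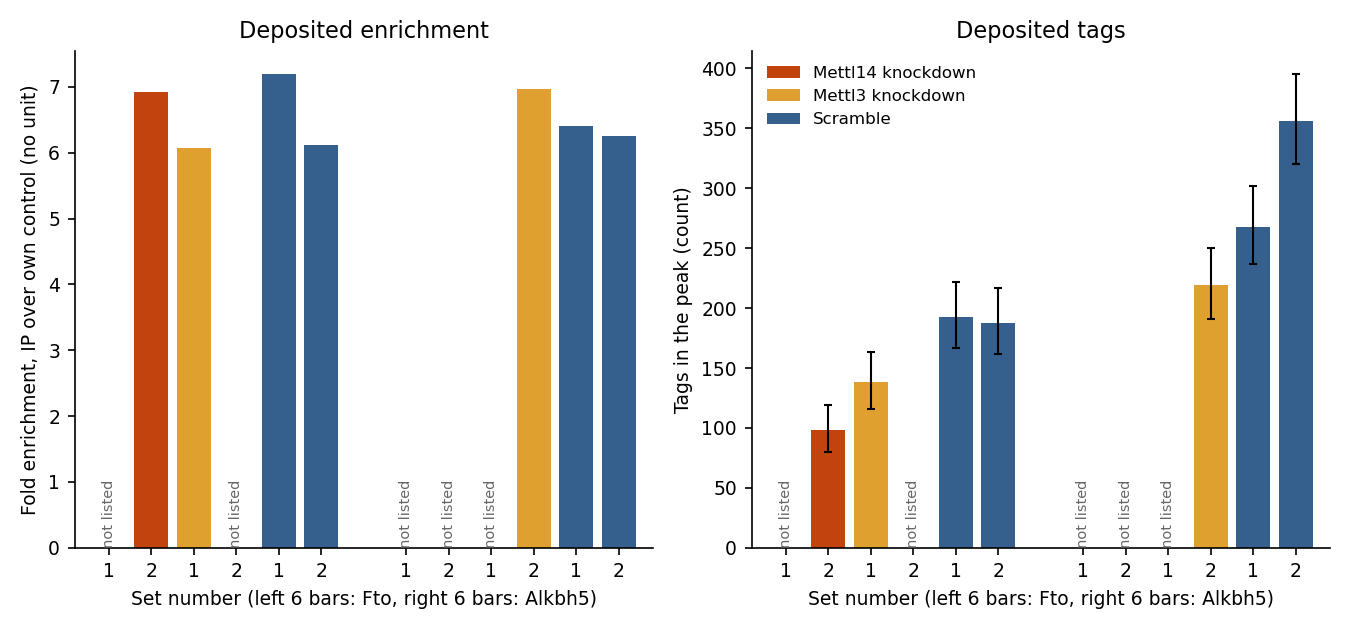
Deposited fold enrichment (left, no unit) and tags (right, count) of the Fto and Alkbh5 peaks, with 1 bar per library and the set number under it. Bars on the tag panel carry 95% Poisson intervals, and libraries without a listed peak are marked. Enrichment lies between 6.07 and 7.19 in every library with a peak. Tags are lower in each knockdown library with a peak than in either scramble library.

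With Mettl14 knockdown, the Alkbh5 peak was lost in both sets and the Fto peak in set 1. A peak was lost where the authors' table marked it as listed in the scramble library only. For the eraser peaks this meant that no knockdown peak overlapped it on the same strand. Among all scramble peaks, 43.3% of 7886 were lost in the Mettl14 table of set 1 and 45.9% of 5438 in that of set 2. In set 2 the Fto peak was shared, with a scaled enrichment of 5.38 after Mettl14 knockdown, against 6.12 with scramble shRNA, and a log2 change of -0.19, in the authors' deposited table. There, 84.8% of 3060 shared peaks were lower and the median log2 change was -0.59, and 75.8% of them had a lower change than Fto. The sign of the Fto value depends on the authors' scaling constant for this table, 0.777: without it the log2 change was 0.18, while 65.7% of all shared peaks were lower, and with the median of all shared peaks set to 0 it was 0.41. The tag ratio of knockdown over scramble was 0.521 (exact 95% interval 0.404 to 0.669), against the median of 0.704 over 475 peaks, 23.8% of which had a lower ratio.

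With Mettl3 knockdown, each eraser peak was lost in 1 set. The Fto peak was shared in set 1 and lost in set 2, and the Alkbh5 peak was lost in set 1 and shared in set 2. Among all scramble peaks, 45.4% were lost in the Mettl3 table of set 1 and 41.9% in that of set 2. In set 1 Fto had a scaled enrichment of 6.09 after Mettl3 knockdown, against 7.19 with scramble shRNA, a log2 change of -0.24 in the authors' deposited table. There, 35.2% of 4516 shared peaks were lower, the median was 0.22, and 23.8% of them had a lower change than Fto. Here the constant was 1.00 and left the Fto value at -0.24, and with the median set to 0 it was -0.46. The tag ratio was 0.715 (0.57 to 0.894), against the median of 0.577 over 694 peaks, 72.5% of which had a lower ratio.

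The Alkbh5 peak of set 2 had a scaled enrichment of 4.24 after Mettl3 knockdown, against 6.25 with scramble shRNA, a log2 change of -0.56 in the authors' deposited table. There, 93.0% of 3337 shared peaks were lower and the median was -0.91, so that 72.7% of them had a lower change than Alkbh5. The sign again turned with the scaling: without the constant of 0.609 the log2 change was 0.16, while 63.0% of all shared peaks were lower, and with the median set to 0 it was 0.35. The tag ratio was 0.615 (0.517 to 0.73), against the median of 0.573 over 693 peaks, 59.2% of which had a lower ratio. No peak of either gene was listed in all libraries of a knockdown and of scramble, so no test over libraries could be made, and each table compares 1 library with 1 library.

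**Figure D3:**
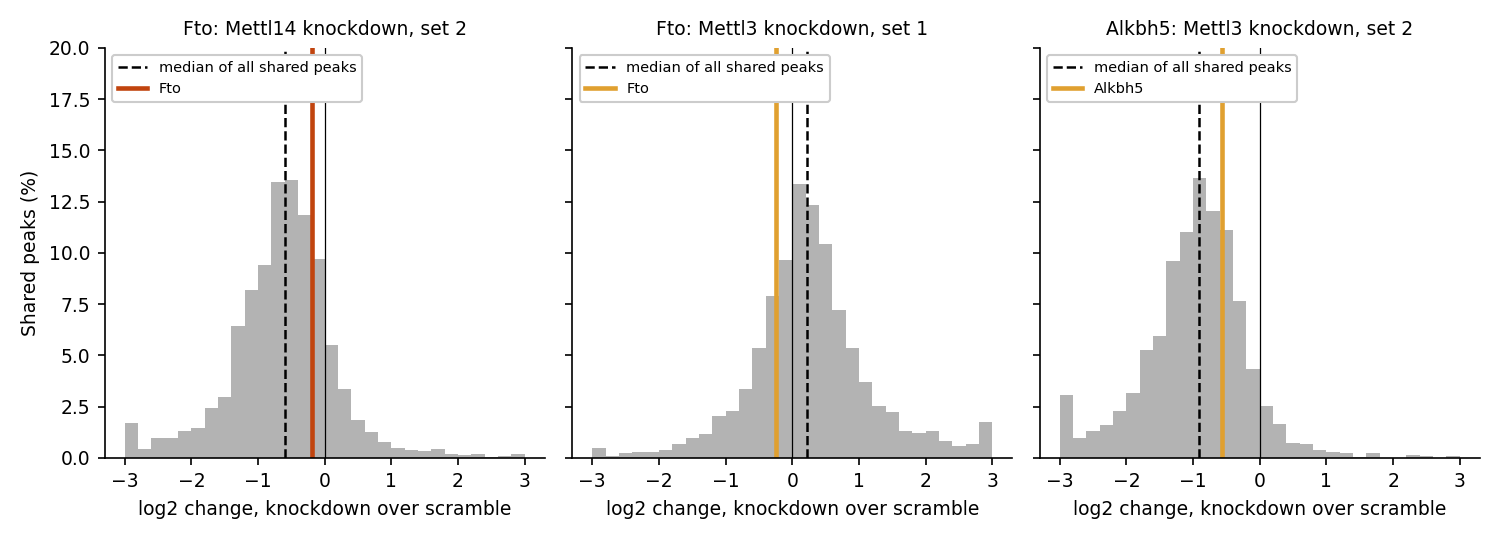
Deposited log2 change of scaled enrichment, knockdown over scramble, for all shared peaks of the 3 tables in which an eraser peak was shared (grey, percent of shared peaks, with values beyond 3 in either direction put in the end bins). The dashed line is the median of all shared peaks and the coloured line the eraser. Fto after Mettl14 knockdown (-0.19) and Alkbh5 after Mettl3 knockdown (-0.56) lie above their table's median, and Fto after Mettl3 knockdown (-0.24) lies below it.

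Over the 4 tables, Fto was lost in 2 and Alkbh5 in 3. Among the 4591 peaks that both scramble libraries listed, 34.9% were lost in at least 2 tables and 22.5% in at least 3, while 49.1% were lost in none. The 2 tables of a set share their scramble library and are not independent. Both erasers were lost or lower in all 4 tables, as were 38.7% of these peaks. With the scaling constants left out, each eraser was so in 3 tables, while 31.6% of peaks were so in all 4. Each eraser was likewise so in 3 with the median of shared peaks set to 0. The share of peaks lost or lower in 3 tables was not worked out, so the count of 3 has no background. The pattern of Fto, lost with Mettl14 knockdown in set 1 and with Mettl3 knockdown in set 2 and shared in the other tables, was had by 48 of the 4591 peaks (1.05%). Neither knockdown lost it in both sets. The pattern of Alkbh5, shared only with Mettl3 knockdown in set 2, was had by 104 (2.27%).

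**Figure D4:**
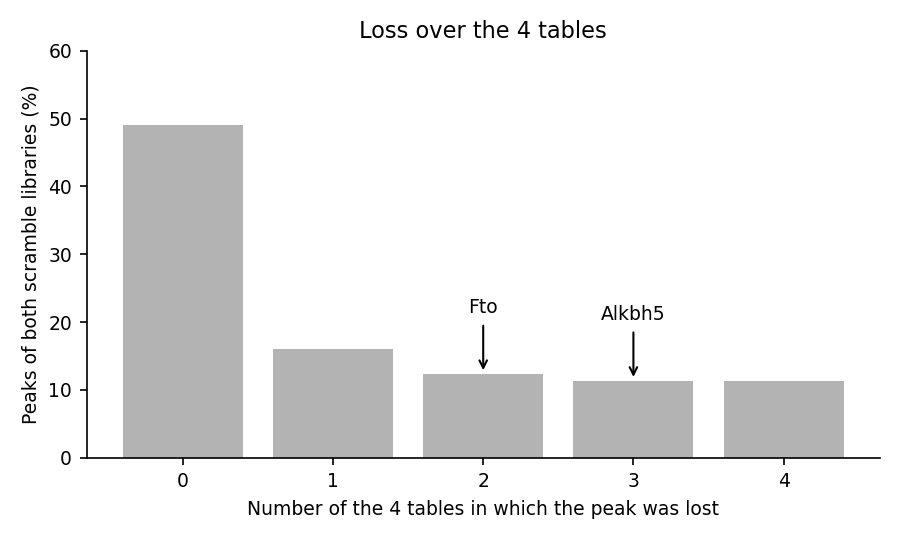
Percent of the 4591 peaks of both scramble libraries (vertical axis) by the number of the 4 tables in which the peak was lost (horizontal axis). Arrows mark the bars that hold Fto (2 tables, 12.3% of peaks) and Alkbh5 (3 tables, 11.3%).

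The Fto peak after Mettl14 knockdown and the Alkbh5 peak after Mettl3 knockdown lay near the listing limit, and the other eraser peaks further from it. The highest FDR listed in any table was 9.99%. The Fto peak had an FDR of 9.21% in the Mettl14 knockdown library and 1.71% in the Mettl3 knockdown library, against 0.15% and 3.59% in the scramble libraries of set 1 and set 2, in the authors' deposited tables. The Alkbh5 peak had 8.04% in the Mettl3 knockdown library, against 5.35% and 5.05% in the scramble libraries, in the authors' deposited tables. At an FDR of at most 5% the Fto peak of the Mettl14 knockdown library would count as lost too, and no Alkbh5 peak would be left in a scramble library. The tables hold nothing on signal below that limit.

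Among all scramble peaks, losses were most frequent in those with the highest enrichment. The groups below rank peaks by enrichment and not by FDR or tags. A part of weak signal in the losses of the eraser peaks was not tested. When the scramble peaks of a set were cut into 10 groups of about equal size by enrichment, Alkbh5 was in the lowest group in both sets, and Fto in group 2 of set 1 and group 1 of set 2. In the lowest group of set 1, 32.4% were lost with Mettl14 and 35.0% with Mettl3 knockdown, and in group 2 of that set 36.2% with each. The lowest group of set 2 lost 33.7% with Mettl14 and 18.3% with Mettl3 knockdown. In the highest group Mettl14 knockdown lost 66.7% in set 1 and 75.7% in set 2, and Mettl3 knockdown 70.4% and 74.4%.

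**Figure D5:**
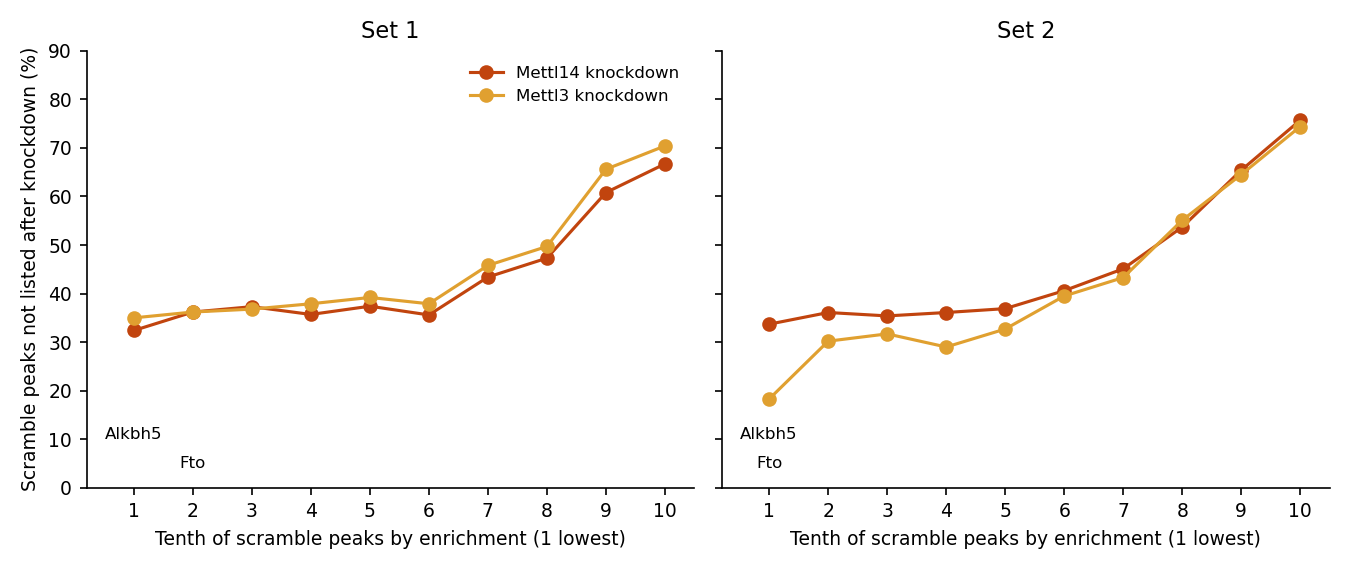
Percent of scramble peaks lost (vertical axis) in 10 groups of about equal size of scramble peaks by enrichment (horizontal axis, 1 lowest), for Mettl14 and Mettl3 knockdown in set 1 (left) and set 2 (right). Gene names above the axis mark the groups of the eraser peaks. The lowest groups lost 18.3% to 35.0% of their peaks and the highest 66.7% to 75.7%.

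The genes whose peaks were most like the erasers' were taken as those with the same state in each table and the smallest root mean square difference in log2 change. For Fto, 36 peaks with a gene name and 1 knockdown peak in each shared table could be compared, over 2 tables. Rfx5, a regulator of MHC class II genes, came closest, with a log2 change of 0.01 after Mettl14 knockdown in set 2 and of -0.20 after Mettl3 knockdown in set 1, by the authors' deposited tables. Prdm16, Shoc2, Gm14443 and Txndc11 followed, with root mean square differences of 0.18 to 0.22. For Alkbh5 there were 82 such peaks, over 1 table. Tacc2, Baz1b, Zfp219, Tmem151a and Epha2 were nearest, at -0.60 to -0.50 against -0.56 for Alkbh5 in the authors' deposited table.

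Listed m6A peaks were also looked up for the other enzymes of the AlkB family and for writer and reader genes. The share of all annotated genes with a listed peak was not worked out. The counts of listed genes given here therefore have no such background. Of Alkbh1 to Alkbh4 and Alkbh6 to Alkbh8, 7 genes in all, Alkbh4 had a peak, listed in the scramble library of set 1 and lost with both knockdowns there. Of 13 writer genes 9 had a listed peak, and 2, 5, 1 and 5 of them were lower in the tables of Mettl14 set 1, Mettl14 set 2, Mettl3 set 1 and Mettl3 set 2. Lower means here that no listed peak of the gene was new or had a log2 change above 0, and higher that none was lost or below 0. Higher writers numbered 4, 1, 2 and 0 in the same tables. With the median of shared peaks set to 0, the set 2 tables had 3 writers lower and 3 higher for Mettl14, and 2 and 2 for Mettl3. Cbll1, the Hakai subunit of the writer complex, was the 1 writer that was lower in every table. Its peak was shared each time, while each eraser peak was lost in some tables. Its log2 changes, in the same order of tables, were -0.69, -0.22, -0.30 and -0.93 by the authors' deposited tables. The value for Mettl14 set 2 was 0.15 without the scaling constant and 0.38 with the median set to 0. Among the peaks of both scramble libraries, 38.7% were lost or lower in all 4 tables, so this does not set Cbll1 apart. Of 13 reader genes 6 had a listed peak, with 1, 5, 1 and 5 lower and 3, 0, 4 and 0 higher. With the median set to 0, 2 readers were lower and 3 higher in each set 2 table, and 3 lower and 3 higher in the Mettl3 table of set 1. Over all listed genes, 57.8%, 70.6%, 49.6% and 75.6% were lower and 27.4%, 19.7%, 34.7% and 16.0% higher in those tables, and with the median set to 0, 50.2% to 58.5% were lower and 27.0% to 37.8% higher.

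The checks that these tables allow were few. Neither Mettl3 nor Mettl14 had a listed peak, so the knockdown could not be read from them. Listed peaks were found for 3 of 8 embryonic stem cell markers and for 1 of 8 feeder fibroblast markers. Sox2 and Klf4 had a peak in both scramble libraries. Esrrb had only a new peak, with Mettl14 knockdown in set 1 and with Mettl3 knockdown in set 2. Thy1 had new peaks only with Mettl14 knockdown in set 2. These counts too have no share of all annotated genes beside them, and they do not identify the cells. A peak needs methylation as well as expression, and an absent peak does not show an absent transcript. The libraries listed 5717 and 4367 peaks with Mettl14 knockdown, 5087 and 4577 with Mettl3 knockdown, and 7886 and 5438 with scramble shRNA, in set 1 and set 2. Of the genes next to Fto, Rpgrip1l had a new peak with Mettl14 knockdown in both sets, and Irx3 with Mettl3 knockdown in set 1. Irx5, which was looked up with them but is not directly next to Fto, had a new peak with both knockdowns in set 2. Among all listed genes, 13.1% and 21.5% had a new peak with Mettl14 knockdown in set 1 and set 2, and 8.98% and 20.7% with Mettl3 knockdown. Of the genes next to Alkbh5, Llgl1 had a peak in the scramble library of set 1 that was lost with Mettl14 and shared with Mettl3 knockdown, and Myo15 had none.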

How the data were processed

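The data were 4 peak tables from m6A-IP of poly(A) RNA. Per the submitters' processing notes, the build was mm10 and the tools included TopHat2 2.0.6 and Bowtie 0.12.7, beside Picard 1.74, SAMtools 0.1.18, cutadapt 1.1 and CASAVA 1.8.2. The version of the peak caller and the release of the gene annotation were not given in the sources used here. Peak names are those that MACS writes, per the file headers, with each IP library called against a control of its own and each strand apart.

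Per the file headers, each deposited row gives a tag count of the peak, a fold enrichment as a ratio, an FDR in percent and a peak score (10 times the negative log10 of the p-value). The authors multiplied the ratio of knockdown peaks by 1 constant per table (set 1: 0.906 for Mettl14 and 1.00 for Mettl3; set 2: 0.777 and 0.609), on a basis not stated. The authors' signed fold score of knockdown over scramble was turned into a log2 change. All peak values are the authors' own.

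Lost, shared and new peaks were taken as the authors' tables mark them, by a matching rule not stated in the sources used here. An overlap of at least 1 nt on the same strand paired the peaks of the 2 scramble libraries. The same overlap gave the marked states for the eraser peaks. The work used pandas 2.3.3, NumPy 2.4.6 and SciPy 1.17.1 in Python 3.11.15. Simulated data were used to check the reading of these marks and the pairing of scramble peaks. They do not test the authors' matching, since the marks were written into them, and their peaks lay far apart. Tag ratios needed a scramble row in a table of the same set. Depth per library is not in the tables. Listed peaks held 4 to 2151 tags, and intervals cover counting error only. The planned exact permutation tests over libraries were not run, since no eraser peak was listed in all libraries of a comparison. No source used here ties a set to a replicate number, or says whether the libraries of a group came from separate cultures. Genes were named by symbol, with the most alike genes chosen by equal states and smallest root mean square difference. The members and lists were chosen with earlier results of these data known.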

Additional observations from a re-analysis of the deposited data

How the results depend on the processing

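No paired analysis was possible because no eraser peak was listed in every library of a comparison, although the tables themselves pair 1 knockdown with 1 scramble library within each set. Fits over libraries and their leave-out versions were not run for the same reason. Without the scaling constants, the log2 changes were 0.18 for Fto with Mettl14 knockdown in set 2 and 0.16 for Alkbh5 with Mettl3 knockdown in set 2, and with the median of shared peaks set to 0 they were 0.41 and 0.35, all turned in sign. Fto with Mettl3 knockdown in set 1 had -0.46 with the median set to 0. As log2 ratios of tags the 3 changes were -0.94, -0.70 and -0.48 in this order, and the percent of peaks with a lower ratio was 23.8, 59.2 and 72.5. Tag ratios exist only for peaks lost in the other knockdown, so these percentages cover fewer peaks. Fto was lost in 50.0% of tables with either set left out, and Alkbh5 in 50.0% without set 1 and 100% without set 2. An overlap of at least 50% of the shorter peak, or on either strand, gave the same states. At an FDR of at most 5%, Fto was lost in 75.0% of tables. With at most 1%, only its set 1 scramble peak was left, and Fto was lost in 100% of the 2 tables that share it. In the Mettl3 table the limit itself made this loss, as the knockdown peak had an FDR of 1.71%. No share over all peaks was worked out at 1%. No Alkbh5 scramble peak was left at either limit. With knockdown peaks held to an FDR of at most 5%, 50.9% and 54.0% of all scramble peaks were lost with Mettl14 and 50.5% and 50.1% with Mettl3 knockdown in set 1 and set 2. This limit could not be set on scramble peaks shared in both tables, whose FDR is not in the rows used here. The Fto peak held 3 motifs when the forms of GGACT that end in A or C were counted too, and the Alkbh5 peak 9. Library depth was not known, which limits every comparison of tags.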
